A study of Mus musculus with 6 samples.

Results

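The single array of Treg cells from mice carrying Foxo1AAA, a constitutively active form of the transcription factor Foxo1, was compared with the 2 arrays of wild-type (WT) Treg cells, which makes 3 of the 6 arrays in the series. All cells were sorted natural Treg cells of C57BL/6 mice. The WT mice carried neither allele, and the Foxo1AAA mice carried the active form on top of their own Foxo1 genes, as far as the labels say. The other 3 arrays held Treg cells of Foxo1 knockout mice (Foxo1KO, 2 arrays) and of knockout mice that also carried Foxo1AAA (Foxo1KO/Foxo1AAA, 1 array), and they are used here where they place a gene that differed between Foxo1AAA and WT. The promoter and site of the Foxo1AAA transgene, the Cre line, the deleted part of Foxo1, any pooling of mice, the sorting gates and the animals' sex and age are not given in the sources used here. Because Foxo1AAA has 1 array, its differences from WT are descriptions of these libraries, and no p-value is given for a gene.

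Foxo1 is a forkhead transcription factor that binds DNA in resting T cells and is phosphorylated by Akt when antigen receptor, costimulatory or growth factor signals activate PI3K, after which it leaves the nucleus. A form whose Akt sites are replaced by alanine stays nuclear and active. In T cells Foxo1 is known for maintaining receptors of quiescent, recirculating cells, such as Il7r and Ccr7, and for restraining effector programmes. In Treg cells it is known to be needed for their suppressive function, and its loss derepresses inflammatory genes.

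Values were log2 expression levels, so a difference of 1 is a 2-fold change, and levels are set against each other only within a probe set. The Foxo1AAA array was correlated at r = 0.979 and 0.980 with the WT arrays across all probe sets and at 0.994 with the Foxo1KO/Foxo1AAA array, whereas the WT arrays were correlated at 0.996 with each other. The 2 arrays with Foxo1AAA thus stood apart from the other 4 together, and any batch that the Foxo1AAA arrays shared cannot be told apart from the transgene. The arrays had similar medians of 6.27 for Foxo1AAA and 6.36 and 6.40 for WT, but the spread was wider on the Foxo1AAA array, with quartiles at 4.86 and 8.42 against 4.95 to 5.01 and 8.29 to 8.32. Accordingly the median difference from WT was −0.20 for genes with a WT mean from 6 to 7 and 0.08 for those from 8 to 10. The median gene differed by 0.23 in size between Foxo1AAA and the WT mean, and by 0.10 between the 2 WT arrays.

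Of 13645 tested genes, 424 (3.11%) lay at least 1 log2 unit beyond both WT arrays on the Foxo1AAA array. Of these, 374 were higher (2.74% of those tested) and 50 were lower (0.366%), so that 88.2% of the differences past 2-fold were upward. Array medians over the tested genes, rather than over all probe sets, were then set equal, which moved every difference by −0.17. The median difference of all tested genes went from −0.02 to −0.19 by this step, away from 0. On that scale the counts were 302 higher and 127 lower, or 70.4% upward. Without WT replicate 1 the genes past 2-fold lower numbered 85, and without WT replicate 2 they numbered 101. The WT arrays themselves were 1 log2 unit or more apart for 12 genes. Among the genes closest to the threshold, Pmaip1 lay 1.001 above the nearer WT array and Metrnl 0.999 above it. Of the 374 genes that were higher, 42 had a WT mean below 5.47, the lowest mean of any tested gene, and differences of such dim genes are lower bounds in size. Of the 374 genes, 55 stood on lists of markers of other cells, 24 on the cell cycle list, 18 on T cell lists and 1 on both kinds (Prdm1). Lists drawn up after the values were seen took in 55 more myeloid genes, 4 more of B and plasma cells and 58 more of the cell cycle, and 159 stood on no list.

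**Figure D1:**
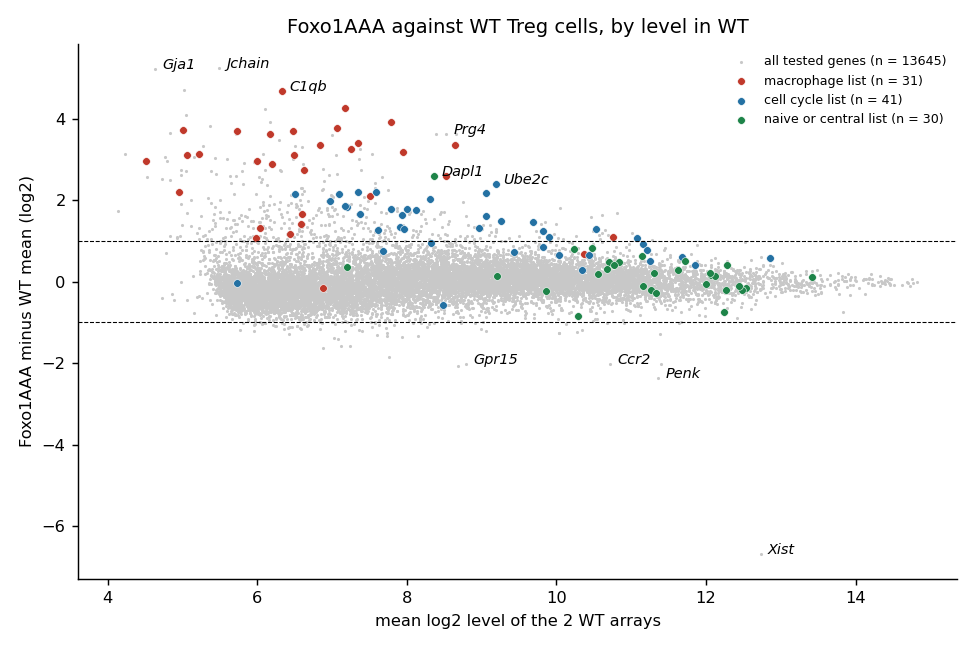
The Foxo1AAA array's log2 level minus the WT mean (vertical axis) is plotted against the WT mean (horizontal axis) for all 13645 tested genes, with members of the macrophage, cell cycle and naive or central T cell lists coloured and dashed lines at 1 log2 unit either way. The macrophage genes lie highest at low WT levels, the cell cycle genes lie mostly above 0 at all levels, and most naive or central genes lie between the dashed lines.

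Foxo1 itself was not higher on the Foxo1AAA array. Its brightest probe set read 11.03 and 11.35 on the WT arrays and 10.71 on the Foxo1AAA array, against 10.87 and 10.65 on the Foxo1KO arrays and 9.66 on the Foxo1KO/Foxo1AAA array. The other probe sets of Foxo1 gave the same picture, at 10.09 and 10.42 in WT against 10.03, and at 9.60 and 9.93 against 9.39, and 1 was dim on every array (4.75 and 4.81 against 4.64). The Foxo1AAA array thus lay below both WT arrays for each of the 4 probe sets, as it did for 46.1% of all tested genes. The Foxo1KO arrays read 9.81 and 9.73 and 9.27 and 9.18 for the other bright probe sets. Whether these probes read the transgene's RNA or the deleted part of the gene is not given, so they do not check the labels. Foxo3, a related family member, read 10.02 and 9.82 in WT and 9.94 with Foxo1AAA, and Foxo4 read 7.83 and 7.58 against 7.24. Gt(ROSA)26Sor, the noncoding transcript of a locus often used for transgenes, was picked out after its values were seen: it read 10.36 and 10.18 in WT and 9.03 with Foxo1AAA, and 9.998 and 9.88 in Foxo1KO against 8.96 in Foxo1KO/Foxo1AAA. The differences were −1.24 and −0.98. The site of the transgene is not given, and these values do not locate it.

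Core T cell genes were near their WT level. None of the 15 tested core T cell genes lay past 2-fold, and their median difference was 0.02, against −0.02 for all tested genes. Cd3e, a chain of the T cell receptor complex, read 10.82 and 10.81 in WT and 10.66 with Foxo1AAA, and Cd4 read 9.67 and 9.68 against 9.70. The largest core difference was that of Thy1, a surface glycoprotein of T cells, at −0.81. Treg markers were also close: Il2ra, the high affinity chain of the IL-2 receptor, read 11.37 and 11.42 against 11.15, and Ikzf2, the transcription factor Helios, read 13.53 and 13.56 against 13.26. The probe set of Foxp3, which defines the lineage, was dim on all 6 arrays, with 5.25 and 5.43 in WT and 5.41 with Foxo1AAA, and so it could not check the label.

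Macrophage markers had the highest median difference of any gene list. Of 31 tested macrophage markers, 28 lay past 2-fold higher and none lower, against 2.74% and 0.366% of all tested genes. Their median difference on the Foxo1AAA array was 3.11. C1qb, which encodes a chain of complement C1q, read 6.14 and 6.51 in WT and 11.004 with Foxo1AAA, and C1qa read 6.32 and 6.62 against 10.16. Csf1r, the receptor for macrophage colony stimulating factor, read 8.36 and 8.93 against 11.99, and Adgre1, a surface receptor of tissue macrophages, 6.64 and 7.02 against 10.18. Genes typical of red pulp and other iron-handling macrophages were among them, including Vcam1 (4.27 above the WT mean), the iron exporter Slc40a1 (3.93), Cd5l (3.78) and the transcription factor Spic (3.14). The WT arrays lay further apart for Csf1r, at 8.36 and 8.93, than for the median tested gene, where they differed by 0.10. For every macrophage gene named so far the Foxo1AAA array stood clear of both WT arrays. Fcgr1, an Fc receptor on the same list, was the exception, at 6.90 and 6.85 in WT and 6.72 with Foxo1AAA.

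Markers of antigen presenting cells and B cells were higher by less. Of 20 dendritic cell markers 7 lay past 2-fold higher, led by the class II genes H2-Aa (8.40 and 8.90 in WT, 12.28 with Foxo1AAA), H2-Ab1 (difference 3.14) and H2-Eb1 (3.11), while Itgax, which encodes CD11c, read 6.04 and 6.06 against 6.69 and Zbtb46, a transcription factor of conventional dendritic cells, differed by −0.88. Of 16 B cell markers 8 lay past 2-fold higher, with a median of 1.095; Ms4a1, which encodes CD20, read 6.52 and 7.23 against 9.65, and Cd79a, a signalling chain of the B cell receptor, 5.53 and 5.81 against 6.88. Among 9 plasma cell genes 4 lay past 2-fold higher, where 2.74% of all tested genes did. Jchain, the joining chain of secreted antibodies, was the extreme, at 5.35 and 5.62 in WT and 10.72 with Foxo1AAA, and Igha, the constant region of IgA, read 7.38 and 7.39 against 10.12. On the Foxo1KO arrays Jchain was also above WT, at 9.24 and 8.18, whereas Igha read 7.35 and 7.47.

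Markers of other cell types differed less. Of 12 CD8 T and NK cell markers 3 lay past 2-fold higher (Fcer1g, Klrd1 and Klrc1), but Cd8a read 7.71 and 7.90 in WT and 7.14 with Foxo1AAA. Klrc1 was higher still in Foxo1KO, at 7.87 and 8.50 against 5.88 with Foxo1AAA. The median differences were 0.08 over 14 monocyte and neutrophil genes, where Plac8 (3.62) and Cebpb (1.43) lay past 2-fold higher, and 0.28 over 10 erythroid genes. With the lowest 50% of genes left out, the monocyte and neutrophil median was 1.43. Past 2-fold higher were also 2 of the 10 erythroid genes. The same held for 1 of 9 platelet and megakaryocyte genes and 1 of 6 immature thymocyte genes. Among all tested genes 2.74% were past 2-fold higher. No marker of mast cells and basophils (6 tested) or of stromal and endothelial cells (13 tested) lay past 2-fold. The defining markers S100a8 of neutrophils and Hba-a1 of red cells were too dim to be tested, at 4.72 and 4.73 in WT against 5.70 and at 5.09 and 5.23 against 5.19.

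Macrophage transcripts were as high on the other Foxo1AAA array. The levels of the 31 macrophage genes, summed on the linear scale, gave a log2 of 12.56 and 12.78 on the WT arrays, 13.18 and 12.94 on the Foxo1KO arrays, 15.18 on the Foxo1AAA array and 15.37 on the Foxo1KO/Foxo1AAA array. For B cell markers the sums were 12.85 and 13.03 in WT, 12.78 and 12.32 in Foxo1KO, 14.02 in Foxo1AAA and 13.83 in Foxo1KO/Foxo1AAA. In sorted samples, more cells of a type and more RNA per cell cannot be told apart. The part of these cells in the differences of other genes was not tested.

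**Figure D2:**
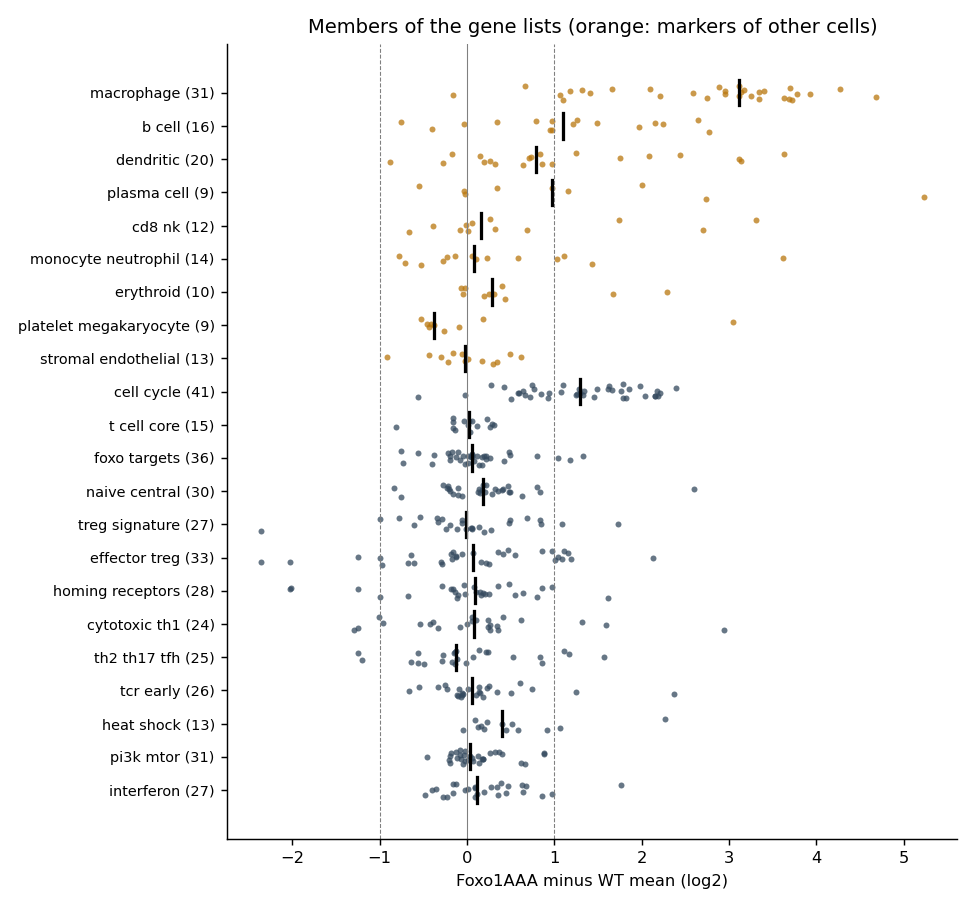
Each point is a gene's log2 level on the Foxo1AAA array minus the WT mean (horizontal axis), by gene list (vertical axis, with the number of tested members), and black lines are medians. The lists of markers of other cells are orange. Macrophage genes have a median of 3.11 and cell cycle genes 1.30, while the core T cell, Foxo target and Treg lists centre near 0.

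The samples also differed in sex-linked transcripts. Xist, the RNA of the inactive X chromosome, read 13.43 and 12.03 on the WT arrays and 6.04 on the Foxo1AAA array. Eif2s3y, on the Y chromosome, read 3.91 and 10.09 in WT and 10.59 with Foxo1AAA, and Kdm5d read 3.44 and 8.54 against 8.93 and Uty 3.97 and 8.67 against 9.03. WT replicate 1 therefore had Xist without Y transcripts, WT replicate 2 had both, and the Foxo1AAA array had Y transcripts with little Xist. Xist also differed by −6.59 between Foxo1KO/Foxo1AAA and Foxo1KO. Both arrays with Foxo1AAA thus shared low Xist, which cannot be told apart from the transgene. The part of the sex-linked difference in other genes was not tested.

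Among genes on no list of other cells, 1 group consisted of those where WT lay between the knockout and the active form. They were chosen after the values were seen, as genes at least 1 log2 unit higher on the Foxo1AAA array than on both WT arrays and at least 1 log2 unit lower on both Foxo1KO arrays, or the reverse. Since the rule fixes their order, their differences from WT are descriptions; the Foxo1KO/Foxo1AAA array did not enter it. With Foxo1AAA highest it held 11 of the 13645 tested genes: Prg4, Dapl1, Bambi-ps1, Cyria, Ddr1, Xdh, Tsc22d1, Rgs2, Myo6, Pde2a and Cd9. Prg4, which encodes the secreted glycoprotein lubricin, read 5.25 and 5.10 in Foxo1KO, 8.46 and 8.58 in WT and 12.14 with Foxo1AAA, a 12.3-fold difference between Foxo1AAA and WT. Dapl1, which is found in naive and memory T cells, read 6.20 and 5.46, then 8.06 and 8.67, then 10.96. Ddr1, a receptor tyrosine kinase for collagen, went from 6.51 and 5.89 through 8.35 and 8.09 to 9.96. Rgs2, which shortens G protein signalling, went from 7.88 and 7.30 through 9.06 and 8.97 to 10.40, and the cyclic nucleotide phosphodiesterase Pde2a from 8.86 on both Foxo1KO arrays through 10.94 and 11.08 to 12.20. In all 11 the 3 groups did not overlap, as the rule requires. For more genes, Foxo1KO and Foxo1AAA lay on the same side of WT by the same distance. Higher in both were 24 genes of the cell cycle list, 47 of the added cell cycle list and 15 on no list. Another 3 on T cell lists and a few on lists of other cells were also higher in both, and 1 gene, Ccr6, was lower in both.

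On the Foxo1KO/Foxo1AAA array all 11 genes were at the level of the Foxo1AAA array rather than that of WT. Prg4 read 11.91 there, Dapl1 10.87 and Ddr1 10.01, and the median of the 11 differences between the Foxo1KO/Foxo1AAA and Foxo1AAA arrays was −0.04. All 11 were within 1.5-fold of each other on these arrays, as were 97.9% of all tested genes and 89.6% of the 374 that were higher, so that this share is near the background. Macrophage markers were also higher on both of these arrays, as given above, and their part in the levels of the 11 genes was not tested.

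Of these 11 genes 8 had a RefSeq promoter window (GRCm38.p6), and the forkhead core motif TGTTTAC was searched on both strands (GTAAACA on the other) in the 250 bases before each start. Only Dapl1 held it, against 2.81% of 10969 tested genes with a window and 3.54% of all 27025 genes with one. Of 31 genes on a list of known Foxo targets 3 held it, among them Bcl2l11 and Txnip. The promoters of Dapl1, Bcl2l11 and Txnip were picked because they carry the same core in front of genes that differed in their response. That contrast follows from the choice, and the third target with the motif is not shown. Capitals mark the motif, and each runs 5′ to 3′ on the plus strand up to the base before the start: Dapl1 at chr2:59484403-59484652, Bcl2l11 at chr2:128125788-128126037 and Txnip at chr3:96557707-96557956.
Dapl1: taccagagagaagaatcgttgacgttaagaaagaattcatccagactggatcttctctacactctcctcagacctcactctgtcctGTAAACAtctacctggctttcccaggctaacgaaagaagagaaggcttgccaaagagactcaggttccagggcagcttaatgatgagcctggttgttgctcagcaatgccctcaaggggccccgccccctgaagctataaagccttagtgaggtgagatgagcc
Bcl2l11: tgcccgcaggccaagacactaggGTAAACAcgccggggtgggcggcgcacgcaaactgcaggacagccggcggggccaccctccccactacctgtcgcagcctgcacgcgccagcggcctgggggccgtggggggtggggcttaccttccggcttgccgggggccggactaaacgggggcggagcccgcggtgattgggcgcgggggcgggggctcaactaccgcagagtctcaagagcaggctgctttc
Txnip: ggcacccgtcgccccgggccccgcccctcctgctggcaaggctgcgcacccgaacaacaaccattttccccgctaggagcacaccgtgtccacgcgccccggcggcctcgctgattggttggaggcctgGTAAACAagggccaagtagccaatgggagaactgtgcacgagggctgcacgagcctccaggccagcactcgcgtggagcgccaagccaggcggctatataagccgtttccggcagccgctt
The motif began 164 bases before the start in Dapl1, 227 in Bcl2l11 and 121 in Txnip. A second start of Bcl2l11 has a window at chr2:128127325-128127574 without the motif. Dapl1 was 2.60 above WT with Foxo1AAA and 2.54 below it in Foxo1KO. Bcl2l11, which encodes the proapoptotic protein Bim, read 11.25 and 11.41 in WT, 11.38 with Foxo1AAA and 9.80 and 9.58 in Foxo1KO, and so was lower in the knockout and near WT with the active form on this brightest probe set. A dimmer Bcl2l11 probe set lay past 2-fold higher, at 5.70 and 5.61 in WT and 6.78 with Foxo1AAA. Txnip, an inhibitor of thioredoxin, read 12.14 and 12.21 in WT, 11.79 with Foxo1AAA and 11.95 and 12.05 in Foxo1KO. A match is a description of these letters and shows no binding.

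With Foxo1AAA lowest the rule held 8 of the 13645 tested genes: Penk, Dsg2, Ccr2, Ctla2b, Gzmb, Tgfb3, Sdr39u1 and Cd160. Penk, which encodes the precursor of enkephalins, read 13.36 and 13.48 in Foxo1KO, 11.47 and 11.24 in WT and 8.99 with Foxo1AAA, 5.14-fold below WT. Ccr2, a chemokine receptor of inflammatory migration, read 12.57 and 12.68, then 10.99 and 10.45, then 8.69. Gzmb, the cytotoxic protease granzyme B, read 14.41 and 14.47, then 10.12 and 9.94, then 8.78. Cd160, a receptor of cytotoxic lymphocytes, read 10.17 and 10.15, then 9.10 and 9.02, then 7.86, and the desmosomal cadherin Dsg2 10.41 and 10.40, then 8.79 and 8.58, then 6.61. The Foxo1KO/Foxo1AAA array was higher than the Foxo1AAA array for all 8, by a median of 0.92, and only Tgfb3, Sdr39u1 and Cd160 were within 1.5-fold, against 66.0% of the 50 genes that were lower. Gzmb there read 10.99, above both WT arrays, and Penk 10.13. Since the rule chose these 8 genes for low values on the Foxo1AAA array, a higher level on an array outside the rule can follow from that choice.

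**Figure D3:**
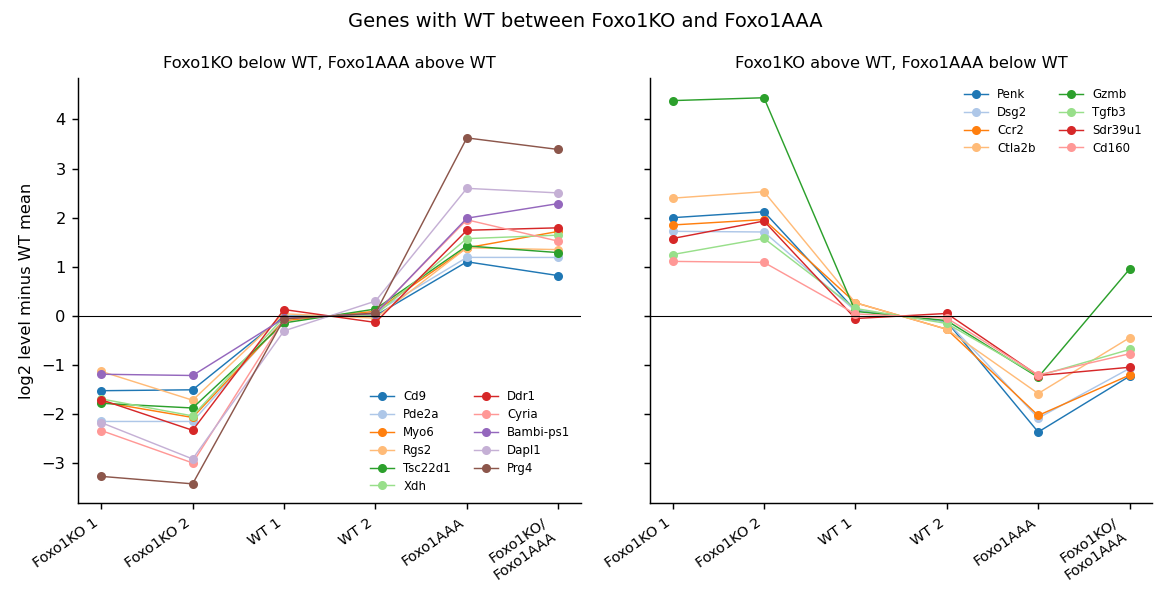
Log2 level minus the WT mean (vertical axis) on each of the 6 arrays (horizontal axis) for the 11 genes higher and the 8 genes lower with Foxo1AAA, 1 line per gene. In the left panel the Foxo1AAA and Foxo1KO/Foxo1AAA points are alike, with a median difference of −0.04; in the right panel the Foxo1KO/Foxo1AAA points are higher by a median of 0.92.

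Known Foxo targets as a group were near their WT level. Of 36 tested, 2 lay past 2-fold higher and none lower, against 2.74% and 0.366% of all tested genes, with a median of 0.06. The 2 were Klf4, a transcription factor of quiescent T cells (6.18 and 6.13 in WT, 7.49 with Foxo1AAA), and the transcriptional coregulator Cited2 (10.02 and 9.91 against 11.14). The classic receptors were above both WT arrays by less than 2-fold: Ccr7, the lymph node homing receptor, read 10.22 and 10.24 against 11.03, Il7r, the IL-7 receptor, 11.74 and 11.71 against 12.22, and S1pr1, the receptor for lymphoid exit, 10.68 and 10.99 against 11.32. Klf2, which drives S1pr1, read 11.996 and 12.13 against 12.23. Foxp1, another forkhead factor of naive T cells, read 12.22 and 12.25 against 11.48 on its brightest probe set, but other probe sets of Foxp1 lay above both WT arrays, as at 10.16 and 10.49 against 10.85, so its direction is not settled. The same genes were further apart between Foxo1KO and Foxo1KO/Foxo1AAA, where 9 of the 36 lay past 2-fold higher (3.58% of all tested genes did), with 8.49 and 8.67 against 10.77 for Ccr7 and 10.003 and 10.50 against 12.60 for Il7r.

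Genes of naive and central T cells showed a similar pattern. Only Dapl1 of 30 lay past 2-fold higher, against 2.74% of all tested genes. The median was 0.18, or 0.01 with array medians set equal, where that of all tested genes was −0.19. Slamf6, an adhesion receptor (10.50 and 10.46 in WT, 11.32 with Foxo1AAA), and Actn1, an actin crosslinker (11.12 and 11.16 against 11.77), were above both WT arrays. In all, 19 of the 30 were, against 40.9% of all tested genes. The other 11 lay below both, against 46.1% of all tested genes. The farthest was Ramp1, a subunit of neuropeptide receptors, at 10.39 and 10.20 against 9.46. In Foxo1KO the median difference of these genes from the same WT arrays was −1.25, and 14 of the 30 lay past 2-fold higher in Foxo1KO/Foxo1AAA than in Foxo1KO, against the same 3.58%.

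Effector and trafficking genes differed one by one. Of 33 effector Treg genes 2 lay past 2-fold higher and 3 lower, against 2.74% and 0.366% of all tested genes. Their median was 0.07. Lag3, an inhibitory receptor for class II molecules, was the highest, at 7.02 and 6.95 in WT and 9.11 with Foxo1AAA, and Prdm1, which encodes Blimp-1 and is also high in plasma cells, read 9.18 and 9.01 against 10.25. In Foxo1KO Prdm1 was also above WT, at 10.28 and 10.46, whereas Lag3 read 6.74 and 6.68. Penk, Ccr2 and Gzmb were the 3 that were lower. Of 27 Treg signature genes only Gpm6b, a membrane proteolipid, lay past 2-fold higher (8.10 and 7.64 against 9.60), and only Penk lower. Itgae, the integrin chain CD103, read 12.09 and 11.26 against 10.68, below both WT arrays by less than the threshold.

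Of 28 homing receptors Ccr2, Gpr15 and Ccr6 lay past 2-fold lower and Ccr3 higher, against 0.366% and 2.74% of all tested genes. Gpr15, which directs T cells to the large intestine, read 8.92 and 8.67 in WT and 6.78 with Foxo1AAA. It was also low in Foxo1KO, at 7.77 and 7.25, so that for this gene WT was the highest group. Ccr6, the receptor for Ccl20, was also highest in WT, with 10.14 and 9.92 in WT, 8.78 with Foxo1AAA and 8.59 and 8.73 in Foxo1KO. Ccr3, a receptor of eosinophils and type 2 cells, read 6.18 and 6.10 against 7.76.

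Among 24 cytotoxic and Th1 genes 3 lay past 2-fold higher and 2 lower, against 2.74% and 0.366% of all tested genes. Gzma, the protease granzyme A, read 5.92 and 5.98 in WT and 8.90 with Foxo1AAA, the chemokine Ccl5 read 10.65 and 10.26 against 12.05, and Gzmk read 6.32 and 6.52 against 7.74. Gzmb and Il18r1, a chain of the IL-18 receptor (11.60 and 11.18 against 10.09), were lower. Granzymes A and B thus lay on opposite sides of WT on the same array. Among 25 genes of Th2, Th17 and follicular helper cells, Il4 (5.64 and 5.36 against 7.07) and the nuclear receptor Pparg (6.54 and 6.52 against 7.70) were higher, and Ccr6 and Rora, a nuclear receptor of Th17 cells (10.40 and 10.28 against 9.14), were lower. Il4 was also above WT in Foxo1KO, at 7.13 and 6.75.

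Cell cycle genes were the second large group. Of 41 tested, 24 lay past 2-fold higher and none lower, 39 lay above both WT arrays, and the median was 1.30. Across all tested genes 40.9% lay above both WT arrays and 2.74% lay past 2-fold higher. Ube2c, a ubiquitin carrier of mitotic exit, read 9.36 and 9.02 in WT and 11.59 with Foxo1AAA. Cdk1, the mitotic kinase, read 8.50 and 8.12 against 10.35, Aurkb, a kinase of chromosome segregation, 7.29 and 6.89 against 9.25, and the spindle motor Kif11 7.86 and 7.31 against 9.79. All of these were also above WT in the knockout, at 10.95 and 10.79 for Ube2c and 10.21 and 10.05 for Cdk1. The medians against the same WT arrays were 1.30 for Foxo1AAA and 1.51 for Foxo1KO, so WT was the lowest of the groups. Between Foxo1KO and Foxo1KO/Foxo1AAA the median was 0.22, and no member lay past 2-fold.

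Inhibitors of the cell cycle and D cyclins were nearer to WT. None of the 15 tested lay past 2-fold in either direction on its brightest probe set, and the median was 0.13. The probe sets of the inhibitor Cdkn1b disagreed, at 11.60 and 11.09 in WT against 11.30 on the brighter and 6.69 and 6.68 against 8.52 on the dimmer. Gadd45a, a stress-induced growth arrest gene, was nearest, at 7.55 and 7.29 in WT and 8.46 with Foxo1AAA, and Ccnd2, a D cyclin known to be repressed by Foxo factors, read 12.86 and 12.90 against 12.72.

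**Figure D4:**
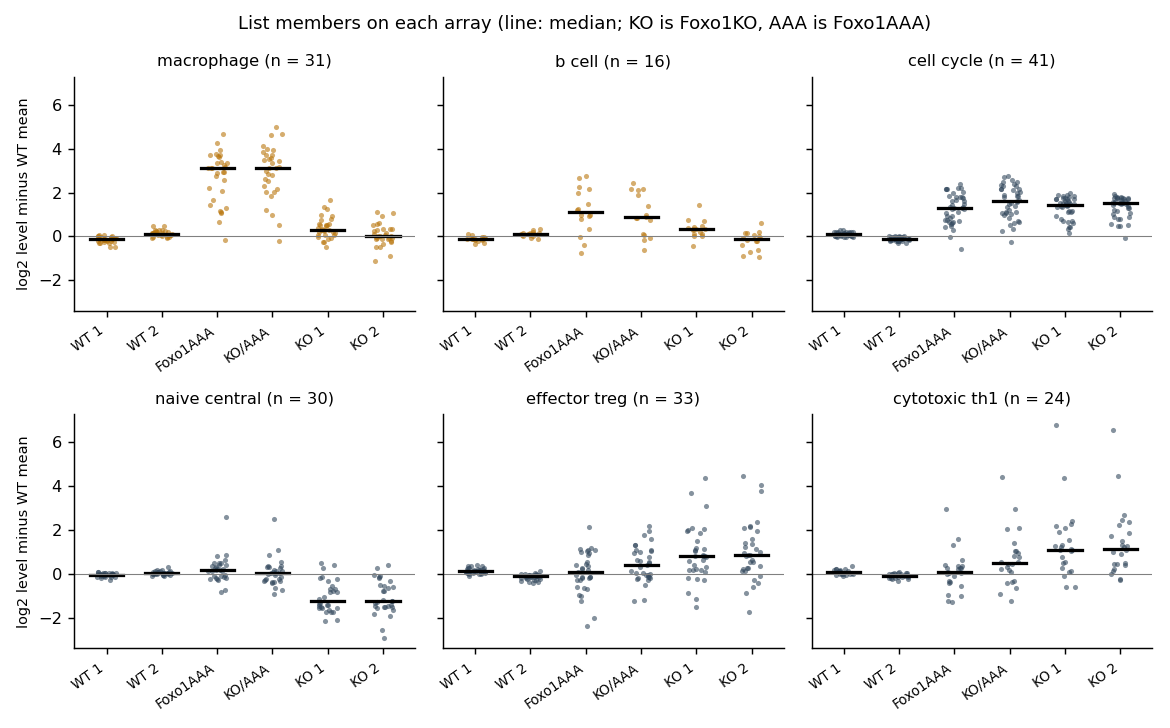
Each point is a list member's log2 level minus its WT mean (vertical axis) on each array (horizontal axis), and black lines are medians, for 6 lists. Macrophage and B cell markers are high on the 2 arrays with Foxo1AAA (medians of 3.11 and 1.095 for Foxo1AAA), cell cycle genes are above WT on the other 4 arrays (1.30 for Foxo1AAA), and naive or central genes have medians below WT on the Foxo1KO arrays (0.18 for Foxo1AAA).

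Stress and early response genes contributed single members. Of 13 heat shock genes 12 lay above both WT arrays, against 40.9% of all tested genes. Hspa1b, an inducible Hsp70 (7.01 and 6.75 in WT, 9.14 with Foxo1AAA), and its cochaperone Bag3 (7.15 and 7.03 against 8.16) lay past 2-fold higher, as did 2.74% of all tested genes. The median was 0.40, or 0.24 with array medians equal, where that of all tested genes was −0.19. Of 26 early response genes of the T cell receptor only the AP-1 members Jun (6.38 and 5.89 against 8.51) and Fosl2 (6.61 and 6.51 against 7.81) lay past 2-fold, while the receptor-induced Nr4a1 read 11.25 and 11.15 against 10.87. No gene lay past 2-fold among 31 of PI3K and mTOR signalling (median 0.04), 16 of glycolysis (0.26) or 20 of autophagy (0.17). Igf1r, a growth factor receptor upstream of PI3K, came closest of the first, at 9.01 and 9.10 against 9.94. Of 18 cholesterol synthesis genes 16 lay above both WT arrays, against the same 40.9%. Idi1, an isomerase of isoprenoid synthesis, lay past 2-fold higher (8.91 and 8.83 against 9.98). Their median was 0.35, or 0.19 with array medians equal. One gene each was higher among 20 apoptosis genes (Pmaip1, which encodes Noxa, 8.93 and 8.68 against 9.93) and 27 interferon response genes (Ifitm3, a restriction factor of virus entry, 7.06 and 6.82 against 8.71).

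The 15 highest genes that were on no fixed list of other cells still included many of myeloid and B lineage. Atp6v0d2, a proton pump subunit of macrophages, and Mrc1, the macrophage mannose receptor, were 4.71 and 4.25 above WT, and Adgre4, Treml4, Hpgd, Ctsh, Fcna and Plbd1 (3.125 to 3.83) were sorted with them after their values were seen. The immunoglobulin light chain genes Iglv1 and Igkv8-30 were 4.10 and 3.92 above WT, and in Foxo1KO they were also above it, by 1.68 and 2.14. The remaining 5 were Gja1, Prg4, Ndnf, Elovl3 and Mgst1. Gja1, the gap junction protein connexin 43, read 4.54 and 4.72 in WT, 4.88 and 4.52 in Foxo1KO, 9.86 with Foxo1AAA and 10.84 in Foxo1KO/Foxo1AAA. Ndnf, a secreted neurotrophic factor, read 6.19 and 6.38 in WT and 9.76 with Foxo1AAA, and Elovl3, a fatty acid elongase, 5.24 and 5.30 against 8.60. Unlike Prg4, these genes were as low in WT as in the knockout.

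The 15 lowest genes were brighter in WT and smaller in difference. After Penk and Dsg2 came Ctse, the protease cathepsin E, at 11.77 and 11.03 in WT and 9.37 with Foxo1AAA. Then came Ccr2, Gpr15 and Ryr2, a calcium release channel (7.75 and 7.78 against 5.91). A dim second probe set of Ctse read 5.08 and 4.99 in WT against 5.11. With probe sets averaged, Ctse differed by −0.98 and Dsg2 by −0.90, less than the threshold. The other 9, 2810410L24Rik, Gm3715, Ctla2b, Hectd2, Gpihbp1, Ankrd6, Tktl1, Neo1 and Epb41l4a, had differences from −1.31 to −1.63. None of the 15 belonged to a list of other cells, by the rule that chose them.

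The comparison of Foxo1KO/Foxo1AAA with Foxo1KO shares no array with that of Foxo1AAA with WT and so gives a second reading of the active form. In it 674 genes (4.94%) lay past 2-fold, 489 higher (3.58%) and 185 lower (1.36%). Of the 374 genes higher with Foxo1AAA in WT cells, 214 were also past 2-fold higher in the knockout, which is 57.2% of the first list and 43.8% of the second. Of the 50 that were lower, 22 were also lower there (44.0% and 11.9%), Xist among them. By group, the same call was made for 45 of 55 genes on the lists of other cells, 12 of 18 genes on the T cell lists and none of 24 genes on the cell cycle list. Of 159 higher genes on no list, 106 had the same call. Of the 374 higher genes 353 had a difference above 0, and of the 50 lower genes 48 had one below 0. The median difference of all tested genes there was −0.02. Both arrays with Foxo1AAA also shared the higher macrophage transcripts, low Xist and any batch, and the part of these in the agreement was not tested.

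Single genes departed from this. Gpr15 was 2.02 lower in Foxo1AAA than in WT but read 7.77 and 7.25 in Foxo1KO against 7.08 in Foxo1KO/Foxo1AAA. Igha was 2.74 above WT with Foxo1AAA and 0.25 above Foxo1KO on the other array, at 7.66, although the macrophage list was as high there. Dapl1 and Prg4 had larger differences in the knockout, 5.05 and 6.73, from a lower starting level to nearly the same end.

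**Figure D5:**
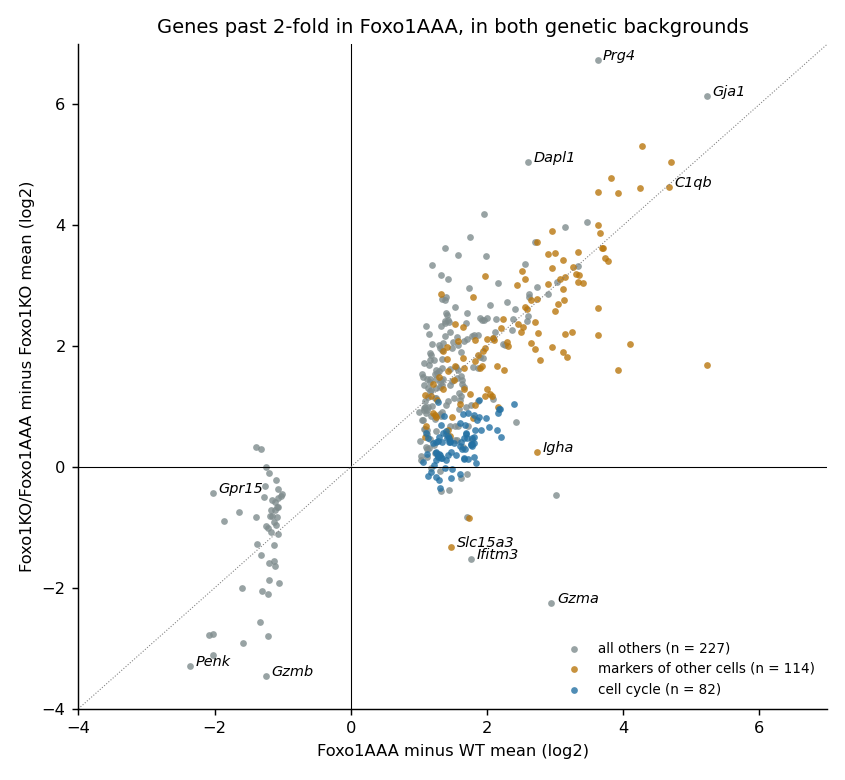
The Foxo1KO/Foxo1AAA minus Foxo1KO difference (vertical axis, log2) is plotted against the Foxo1AAA minus WT difference (horizontal axis, log2) for the genes past 2-fold in Foxo1AAA, without Xist, and the dotted line marks equal differences. Cell cycle genes lie near 0 on the vertical axis, with a list median of 0.22, many markers of other cells lie near the line while Jchain, Igha and others lie below it, and Gzma, Ifitm3 and Slc15a3 have opposite signs.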

How the data were processed

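Expression in sorted mouse Treg cells was measured on 6 arrays of 45101 probe sets. The deposited log2 values were made with RMA in R 2.15 with limma 3.12.1, per the submitters' processing notes; RMA quantile-normalizes the arrays, which hides a shift of most genes in 1 direction, and low signals are compressed. Of the probe sets 34958 were listed with 1 gene, 932 with several and 9211 with none, and the latter were left out. Each of 18194 genes was represented by its brightest probe set over all arrays, and the lowest 25% by mean over the 6 arrays were left out, leaving 13645. A gene was called where the Foxo1AAA array lay at least 1 log2 unit beyond both WT arrays. No label says that replicate arrays came from separate mice, and the number of arrays limits the precision.

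As an alternative, a model of the 4 groups was fitted in limma (3.58.1, run under R 4.3.3) and checked on simulated data. Other alternatives changed the filter, the probe set rule, the scaling, the threshold and the WT arrays used. The genes named are the Foxo family, the 15 highest and 15 lowest called genes on no list of other cells, up to 5 members per list, defining markers of other cells and sex-linked genes. The members and lists were chosen with earlier results of these data known, and the additional myeloid, B cell and cell cycle lists and the genes with WT between Foxo1KO and Foxo1AAA after their values were seen. Promoter sequences are from RefSeq (GRCm38.p6), where 10969 of the tested genes matched by symbol. Foxp3, S100a8 and Hba-a1 fell below the filter, and Tcf7 had no probe set listed with 1 gene.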

Additional observations from a re-analysis of the deposited data

Results flagged for a closer look

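Of the genes past 2-fold higher with Foxo1AAA in WT cells, 3 were past 2-fold lower with it in knockout cells, and these differences in direction were not tested. Gzma, granzyme A, was 2.95 above WT on the Foxo1AAA array, whereas the Foxo1KO/Foxo1AAA array lay −2.26 from Foxo1KO, where Gzma read 12.73 and 12.49. Ifitm3 differed by 1.77 from WT and by −1.53 from Foxo1KO. Slc15a3, a lysosomal peptide and histidine transporter, differed by 1.48 and by −1.32. For each, both arrays with Foxo1AAA lay between the WT and Foxo1KO arrays: Gzma read 8.90 and 10.35, Ifitm3 8.71 and 9.18, and Slc15a3 7.39 and 7.91. No gene past 2-fold lower with Foxo1AAA in WT cells was past 2-fold higher in the knockout.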

How the results depend on the processing

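No paired analysis was possible because Foxo1AAA has 1 array, so the groups compared share fewer than 2 replicate numbers. The 374 higher genes became 409 with no filter, 302 with array medians equal, 886 over every probe set, 847 at 1.5-fold, 1834 by limma at an adjusted p under 0.05 of any size (27.5% of genes either way), and 78 among genes with a WT mean of at least 8. The 50 lower genes became 24 with the lowest 50% left out, 28 with probe sets averaged, 127 with array medians equal, 180 over every probe set, 553 at 1.5-fold, 1924 by limma and 15 at a WT mean of at least 8. Without WT replicate 1 the counts were 470 higher and 85 lower, and without WT replicate 2 they were 417 and 101. The limma fit assumes that the lone array varies like the WT and Foxo1KO pairs. Genes chosen for their distance from WT on the same values are bound to do well in it, so it gives these calls no separate support.

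The macrophage median was 2.89 with probe sets averaged and 2.95 with array medians equal, and the cell cycle median 1.02 and 1.13. With array medians equal, the median of all tested genes was −0.19. The list medians were then −0.14 for core T cell genes (−0.053 by quantiles over 3 arrays), −0.11 for Foxo targets, −0.094 for effector Treg genes and 0.014 for naive or central genes. Leaving out a WT array gave −0.021 to 0.074 for core T cell, −0.015 to 0.096 for Foxo target and −0.15 to 0.14 for effector Treg genes, so these medians have no direction. Of 390 values of 78 named genes under the alternatives 386 kept their sign, and none of a called gene turned. The setting on WT level was chosen after seeing the data.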
